A study of Mus musculus with 2 samples.

Results

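The genes described here belong to families best known for adding or removing lysine marks on histone tails, although some members act on other proteins or molecules. They are the histone lysine demethylases (Kdm), the histone deacetylases (Hdac), the sirtuins (Sirt), and the SET-domain and PR-domain proteins named Setd, Smyd, Prdm and Ezh. They were taken from 2 Affymetrix arrays, 1 of the mouse line SVEC4-10 and 1 of the mouse line MS-1, as every probe set assigned to a single gene whose symbol begins with Kdm1 to Kdm8, Hdac, Sirt, Setd, Smyd or Prdm followed by a number or letter, or is Ezh1 or Ezh2, with the sex-linked demethylases Kdm5c, Kdm5d and Kdm6a left out. This gave 128 probe sets of 62 genes, out of 34945 probe sets of 18193 genes. All but 1 of the 62 encode proteins, the exception being Prdm16os, a long noncoding RNA that enters by its symbol alone. The rule uses gene names and no signal.

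By its label, SVEC4-10 is an endothelial line from an axillary lymph node and was grown in 10% fetal calf serum, and MS-1 comes from the microvasculature of the pancreas and was grown in 5%. Both are permanent lines carrying the SV40 large T antigen, so neither is a model of resting endothelium, and cells were taken at confluence after 3 to 5 days and at passage 5 at the latest. Each line is represented by 1 array, so no difference below has a replicate check, no p-value was computed, and line, serum and hybridisation cannot be told apart. Signal is the probe set intensity as deposited, in arbitrary units, and values of different probe sets cannot be set against each other.

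The array labelled SVEC4-10 carried almost none of the markers of endothelium, so its label and its markers disagree and the identity of the sample is in doubt. SVEC4-10 stands below for the array so labelled. Of 12 endothelial genes listed, 11 were measured, and 1 of these was above background in SVEC4-10, against 11 in MS-1, with a summed signal of 104 against 28329. Pecam1, the adhesion molecule CD31, had a signal of 1.27 in SVEC4-10 and 4777 in MS-1. Fibroblast and mesenchymal markers ran the other way, with 8 of 8 measured genes above background in SVEC4-10 and 1 in MS-1 and summed signals of 24386 and 81.9, and so did mesothelial markers (6 of 7 and 3 of 7, summed signals 17155 and 179.9). The leukocyte genes Ptprc, Cd3e, Itgam and Cd79a were below background on both arrays. Of the 3 measured leukocyte genes, 1 was above background in SVEC4-10 (Csf1r, 35.5). All 3 were so in MS-1 (Csf1r 45.4, Laptm5 26.1 and Coro1a 50.7). Summed signals in SVEC4-10 and MS-1 were low for leukocyte (57.3 and 122) and epithelial lists (167 and 287). These marker differences accompany every comparison below, and their part in any of them was not tested. In RNA from a whole culture, fewer cells of a type and less RNA per cell cannot be told apart.

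Histone tails carry methyl and acetyl groups on lysines, and the balance of enzymes that add and remove them sets how open a stretch of chromatin is. Demethylases of the LSD type oxidise methyl groups with a flavin cofactor, whereas those of the Jumonji C (JmjC) type use iron, oxygen and 2-oxoglutarate. Classical deacetylases need zinc, sirtuins need NAD, and SET domains transfer methyl groups from S-adenosylmethionine. In vessels the best known members are Hdac7, which keeps endothelial junctions intact in mouse embryos, Sirt1, which acts in vessel sprouting, and Ezh2, the catalytic subunit of the polycomb repressive complex.

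A gene was called measured if a probe set lay above background, at a signal of 17.6 in SVEC4-10 and 16.3 in MS-1. These levels are the 95th percentile of 129 probe sets of genes silent in most cell types, namely those of smell, pheromone and taste receptors and of hair keratin-associated proteins. Of the 62 members, 57 (91.9%) were measured on at least 1 array, against 69.2% of all 18193 genes. Of these, 52 were above background on both arrays, 3 in SVEC4-10 only (Hdac11, Setd4 and Setd6) and 2 in MS-1 only (Prdm1 and Prdm11). Signals below background were raised to it before a ratio was taken, so the ratios of those 5 genes are bounds, as are those of single probe sets with 1 side below background. The 5 genes passed as measured through the array where they were brighter. The other 5 members, Hdac9, Kdm4d, Prdm14, Prdm16 and Prdm16os, were not above background on either array.

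Of the 57 measured members, 44 (77.2%) lay within 2-fold on the arrays, against 72.6% of all measured genes, which is close to that background. Differences are given as the log2 ratio of SVEC4-10 over MS-1, positive where the SVEC4-10 signal was higher. At least 2-fold higher signals in SVEC4-10 were found for 10 of 57 measured members (17.5%), against 15.3% of all 12583 measured genes. Higher signals by the same fold in MS-1 were found for 3 members (5.26%), against 12.1% of all genes. At 4-fold the counts were 1 and 1, against 5.78% and 4.3% of all genes, or 10.1% in either direction. The share called higher in SVEC4-10 is close to that of the array as a whole. Among the 52 members above background on both arrays the counts were 7 and 2, or 13.5% and 3.85%, against 13.4% and 10.6% of 10123 such genes. Their median log2 ratio over all 57 was 0.16 (range -2.18 to 3.27), against 0.018 for all measured genes, and 34 had a ratio above 0 and 23 below (59.6% above, against 50.9% of all measured genes).

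The only error these data allow is the spread between probe sets of the same gene, which gave a standard deviation of 0.48 for a log2 ratio (4813 genes), 0.54 among dim genes and 0.44 among bright ones. Differences between cultures are outside this figure, and so is anything that shifts a whole array, such as its scaling. Both arrays had been scaled to the same trimmed mean, whereas the spiked-in poly-A controls (21 probe sets) were 1.43-fold brighter in SVEC4-10. Setting these controls equal lowers every log2 ratio by 0.51, so that a ratio between 0 and 0.51 changes sign. It turns the members' median to -0.35. The count at least 2-fold higher in SVEC4-10 becomes 5 (8.77%, against 8.63% of all measured genes). That higher in MS-1 becomes 12 (21.1%, against 25.4%). The median of all genes then becomes -0.49, and since all genes shift alike the distance between the medians cannot change.

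**Figure D1:**
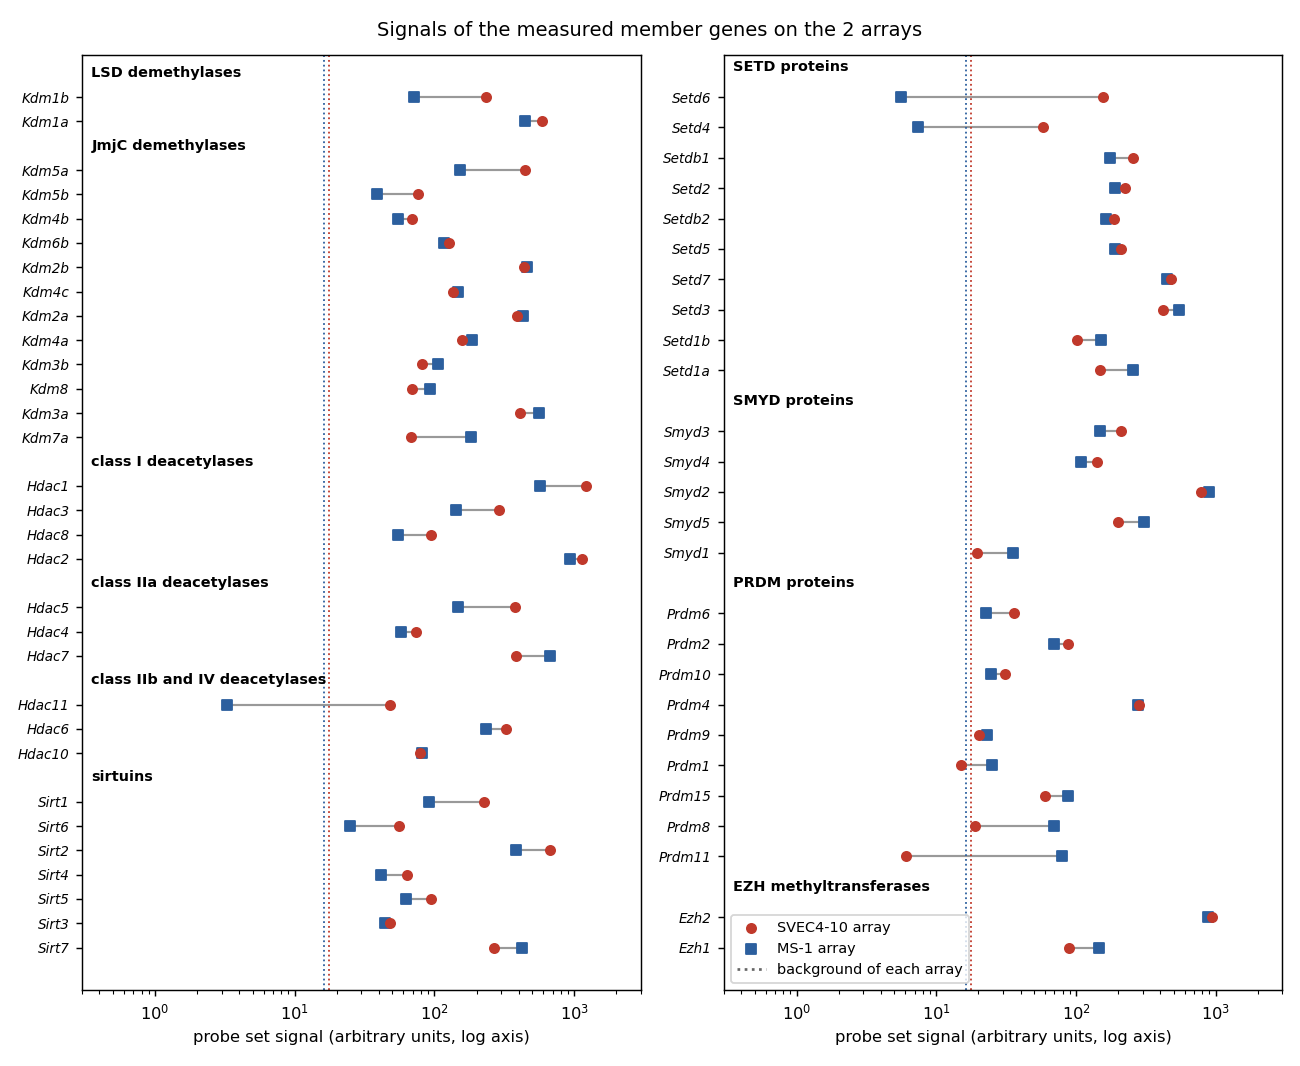
Signal of each of the 57 measured members in SVEC4-10 (red circles) and in MS-1 (blue squares), grouped by family and ordered within a family by the ratio. The horizontal axis is the probe set signal on a log scale, and dotted lines mark the background of each array, 17.6 and 16.3. Most pairs lie close together, and Setd6, Setd4, Hdac11, Prdm1 and Prdm11 have a point below background on 1 array.

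Both LSD-type demethylases had higher signal in SVEC4-10, where 50.9% of all measured genes did. Kdm1b, the enzyme LSD2, which is needed to set maternal imprints in mouse oocytes, had a signal of 233 in SVEC4-10 and 71.4 in MS-1, a log2 ratio of 1.71 (3.26-fold) from its only probe set. Kdm1a, the enzyme LSD1 of the CoREST repressor complex, had signals of 590.2 and 441 in SVEC4-10 and MS-1 (log2 ratio 0.42), which is within the error of a ratio. A second Kdm1a probe set gave 0.78. When scaled to the poly-A controls the ratio of Kdm1b was 1.19 and that of Kdm1a was -0.093, so the direction for Kdm1a depends on the scaling.

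The JmjC demethylases gave no common direction. Of 13 members, 12 were measured, 1 was at least 2-fold higher in SVEC4-10, 1 in MS-1 and 10 in neither (median log2 ratio -0.13). The shares over all measured genes were 15.3%, 12.1% and 72.6%, and 83.3% of these 12 lay within 2-fold. The gene higher in SVEC4-10 was Kdm5a, which removes methyl groups from the lysine that marks active promoters and was first found as a partner of the retinoblastoma protein. Its signals were 445 in SVEC4-10 and 151 in MS-1, a log2 ratio of 1.56 (2.94-fold). Both further measured probe sets pointed the same way, one at 0.93 and the other, below background in MS-1, at no less than 0.86. Kdm5b, its close relative with the same substrate, had signals of 76.4 and 38.5 in SVEC4-10 and MS-1 and lay just inside the 2-fold limit at a log2 ratio of 0.99, with at least 0.63 at its second probe set, below background in MS-1. Both measured Kdm5 genes were thus brighter in SVEC4-10 at every measured probe set.

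Kdm7a was the one demethylase at least 2-fold higher in MS-1. It reads an active promoter mark through a PHD finger and removes repressive methyl groups nearby. The probe set that stands for it had a signal of 68.0 in SVEC4-10 and 181 in MS-1, a log2 ratio of -1.42. Its other measured probe sets had signals of 19.2 and 37.7 in SVEC4-10, against 79.1 and 114 in MS-1. Their log2 ratios were -2.04 and -1.60, so each of the 3 measured probe sets of Kdm7a was over 2-fold lower in SVEC4-10.

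The other measured JmjC demethylases lay within 2-fold. Kdm2a and Kdm2b, which bind unmethylated CpG islands through a zinc finger, had SVEC4-10 signals of 391 and 440.0, against MS-1 signals of 431 and 462. The measured probe sets of Kdm2a ranged from -0.19 (a bound) to 0.38 in log2 ratio. Kdm3a, a hypoxia-inducible enzyme, had signals of 413 in SVEC4-10 and 563 in MS-1, and its relative Kdm3b had 81.0 and 106 on the same arrays. Both ratios, -0.45 and -0.38, lay within the error. Kdm4a, Kdm4b and Kdm4c, which share trimethylated substrates, had log2 ratios of -0.25, 0.33 and -0.13. Kdm6b, which removes the polycomb mark and is induced by inflammatory signals in macrophages, had signals of 126 in SVEC4-10 and 118 in MS-1, with probe sets from -0.056 to at least 0.79 in log2 ratio. Kdm8 had a log2 ratio of -0.44, and Kdm4d did not exceed a signal of 8.75 in SVEC4-10 or 15.4 in MS-1.

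Most deacetylases and sirtuins had higher signal in SVEC4-10. Of 17 measured deacetylases and sirtuins, 6 (35.3%) were at least 2-fold higher in SVEC4-10, 0 in MS-1 and 11 in neither. Among those 6, Hdac11 passed as measured only through SVEC4-10. The median log2 ratio was 0.61, and 14 of 17 had a ratio above 0 (82.4%). Over all measured genes, 15.3% were at least 2-fold higher in SVEC4-10, 12.1% in MS-1 and 72.6% in neither. Their median was 0.018, with 50.9% above 0. With the poly-A controls set equal, the median became 0.099 against -0.49 for all genes. Under that scaling 10 of 17 ratios remained above 0, against 3452 of all 12583 measured genes. At least 2-fold higher signals were left for 1 gene in SVEC4-10 and 2 in MS-1, against 8.63% and 25.4% of all measured genes. That scaling shifts every gene alike, so the distance from the median of all genes cannot change, while the direction of single deacetylases depends on it.

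All 4 class I deacetylases had higher signal in SVEC4-10 at the probe set used, where 50.9% of all measured genes did. At least 2-fold higher were 2 of the 4, against 15.3% of all measured genes. Hdac1, a catalytic subunit of the SIN3, NuRD and CoREST complexes, had a signal of 1220.0 in SVEC4-10 and 570.4 in MS-1, a log2 ratio of 1.10. Its partner and close relative Hdac2 had 1133 and 933 in SVEC4-10 and MS-1, a ratio of 0.28 that lies within the error. A second Hdac2 probe set gave 0.32, and another, below background in SVEC4-10, gave at most -0.26. Hdac3, which works within nuclear corepressor complexes, had signals of 288 and 143 in SVEC4-10 and MS-1 and stood at the 2-fold limit with a ratio of 1.01. Hdac8, which deacetylates the cohesin ring, had 94.9 in SVEC4-10 and 54.6 in MS-1, a ratio of 0.80. Scaling to the poly-A controls left Hdac1, Hdac3 and Hdac8 at 0.58, 0.49 and 0.28, and Hdac2 at -0.23.

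The class IIa deacetylases, which shuttle between nucleus and cytoplasm and bind MEF2 transcription factors, did not point one way. Hdac5, which restrains endothelial sprouting, had a signal of 374 in SVEC4-10 and 149 in MS-1, a log2 ratio of 1.33 (2.52-fold), or 0.82 with the poly-A controls set equal. Hdac7, the class IIa enzyme most tied to endothelium, had the reverse pattern, with 383 in SVEC4-10 and 672 in MS-1 (ratio -0.81). Its second probe set had 200.1 and 399.9 on the same arrays, a ratio of -0.999. Hdac7 was the only measured deacetylase other than Hdac10 and Sirt7 with a ratio below 0, and it lay within 2-fold as deposited, but at -1.32 with the poly-A controls set equal. The endothelial markers were lower on the same array, with a median log2 ratio of -7.00 over 11 genes. Any link between them and Hdac7 was not tested. Hdac4 had signals of 74.0 and 57.4 in SVEC4-10 and MS-1 (ratio 0.37), and its 3 measured probe sets disagreed, with a lowest ratio of -1.14. Hdac9 reached at most 15.8 in SVEC4-10 and 10.3 in MS-1, below background on both.

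Among the remaining zinc-dependent enzymes, Hdac11, the sole class IV enzyme, had a signal of 47.8 in SVEC4-10 and was below background in MS-1, a difference of at least 2.93-fold. The second probe set of Hdac11 was barely above background in SVEC4-10 (19.8) and below it in MS-1, which bounds its ratio at no less than 0.28, so the size rests on 1 dim probe set. Hdac6, the tubulin deacetylase, had 326 in SVEC4-10 and 235 in MS-1, and Hdac10, a polyamine deacetylase, had 79.0 and 81.3 on the same arrays. Their log2 ratios of 0.47 and -0.043 lie within the error.

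Of the 7 sirtuins, 6 had higher signal in SVEC4-10, where 50.9% of all measured genes did. Sirt1, the nuclear deacetylase of histones, p53 and FOXO factors, had 227 in SVEC4-10 and 92.1 in MS-1, a log2 ratio of 1.30 (2.46-fold). Sirt6, a chromatin-bound enzyme of DNA repair and glycolytic gene control, had 56.1 and 25.03 in SVEC4-10 and MS-1, a ratio of 1.16, and was closer to background. Both rest on 1 probe set. Sirt2, the mainly cytoplasmic tubulin deacetylase, followed with 672 in SVEC4-10 and 381 in MS-1 (ratio 0.82). The mitochondrial enzymes Sirt3, Sirt4 and Sirt5 had ratios of 0.12, 0.61 and 0.59, with a second Sirt5 probe set at 0.45. The exception was Sirt7, the nucleolar sirtuin, with 269 in SVEC4-10 and 420.2 in MS-1 (ratio -0.64). Scaled to the poly-A controls, 5 of 7 ratios stayed above 0, against 3452 of all 12583 measured genes. None of the sirtuins was then 2-fold higher in SVEC4-10, against 8.63% of all measured genes.

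**Figure D2:**
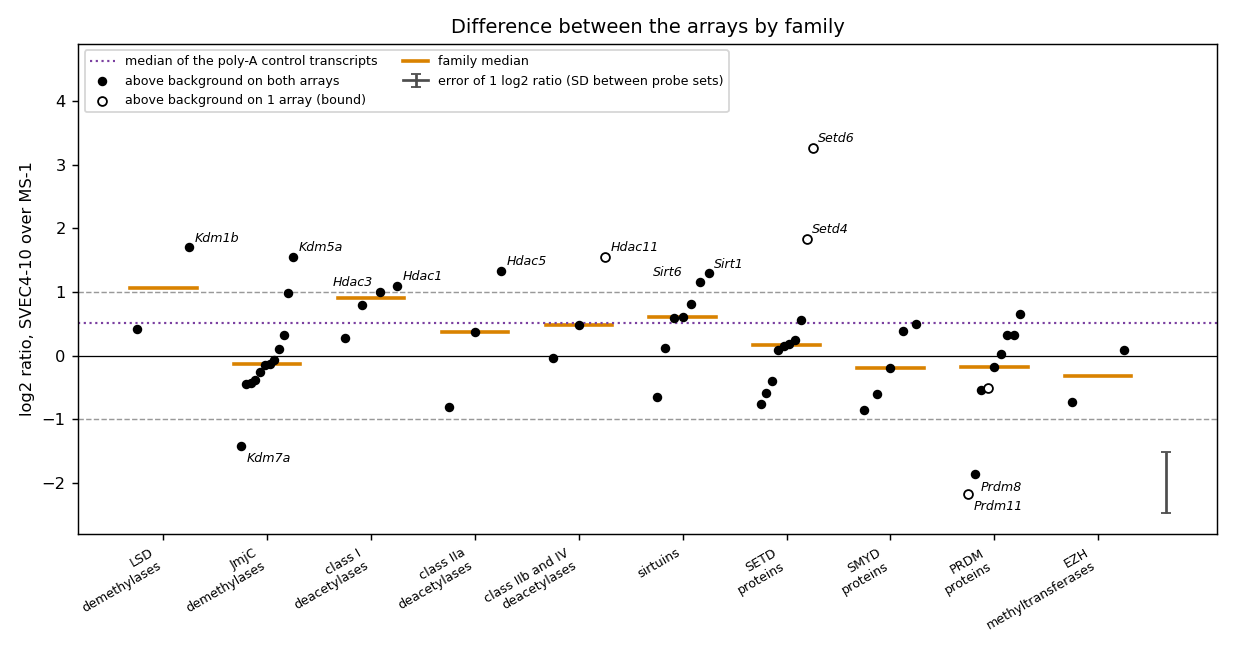
Log2 ratio of SVEC4-10 over MS-1 for each measured member by family, with filled points for genes above background on both arrays, open points for bounds, and orange bars at the family medians. The dashed lines mark 2-fold, the purple dotted line the median of the poly-A controls (0.51), and the error bar the standard deviation of 0.48 on each side. Class I deacetylases and sirtuins lie mostly above 0, JmjC, SMYD and PRDM genes are spread around it, and Setd6 stands highest at 3.27.

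The largest difference of the whole set was that of Setd6, a methyltransferase that places a methyl group on the NF-kB subunit RelA and so holds back its target genes. Its signal was 157 in SVEC4-10 and 5.61 in MS-1, where it was below background, so the gene was at least 9.64-fold higher in SVEC4-10. This bound depends on the background chosen, and the log2 ratio, 3.27, is 2.27 with the background doubled and 2.76 with the poly-A controls set equal. A second probe set had 102 in SVEC4-10 and 8.53 in MS-1, a log2 ratio of at least 2.64. The third was below background on both. Both informative probe sets thus gave no signal above background in MS-1. The error of 0.48 comes from probe sets above background on both arrays, so it does not apply to these bounds.

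Setd4, a related protein, had 58.4 in SVEC4-10 and was below background in MS-1, at least 3.58-fold, but its second measured probe set had 19.4 and 18.3 in SVEC4-10 and MS-1 and a ratio of 0.084. The SETD enzymes of histone marks were closer to even. Setd1a and Setd1b, the catalytic subunits of COMPASS complexes that methylate active promoters, were lower in SVEC4-10, with 149 against 255 for Setd1a (ratio -0.77) and 102 against 152 for Setd1b (ratio -0.58). The second probe set of Setd1b gave -1.22, and that of Setd1a, below background in SVEC4-10, at most -0.14. Setdb1, which silences retroelements, had 255 in SVEC4-10 and 174 in MS-1 (ratio 0.56, and 0.48 at a second probe set), and its relative Setdb2 had a ratio of 0.19. Setd2, which trimethylates the lysine marked during transcript elongation, had 224 and 189 in SVEC4-10 and MS-1. Setd7, which modifies many nonhistone proteins, had 479.7 and 449, Setd3, the actin histidine methyltransferase, had 418 and 549.8, and Setd5 had 210.3 and 188, in the same order of arrays. Their log2 ratios at the probe sets used ran from -0.40 to 0.24, all within the error. The other probe sets of Setd5 disagreed, with 0.68 at one and, below background in SVEC4-10, at most -0.29 at another.

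Of the 5 SMYD genes, 0 were 2-fold apart, against 27.4% of all measured genes, and so few genes set no pattern. Smyd2, a lysine methyltransferase of p53 and other proteins, had signals of 783 in SVEC4-10 and 891 in MS-1. Smyd5 had 200.4 and 304 in SVEC4-10 and MS-1, a ratio of -0.60 that was -0.56 at a second probe set and at least 0.18 at another near background. Smyd3 and Smyd4 had ratios of 0.50 and 0.39. Smyd1, a gene of heart and skeletal muscle, had 19.5 in SVEC4-10 and 35.3 in MS-1, close to background on both, and its 3 measured probe sets ran from -0.86 to at least 0.15.

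Of the 12 PRDM genes, 3 were below background on both arrays, a smaller share than the 5610 of all 18193 genes. Those 3 include the noncoding Prdm16os. Among the 9 measured of 12, a signal at least 2-fold higher in MS-1 was found for 2 (22.2%, against 12.1% of all genes). Of these 2, Prdm11 passed as measured only through MS-1, so the share depends in part on the filter. Prdm8 was above background on both arrays. Prdm11 had a signal of 6.10 in SVEC4-10, below background, and 79.7 in MS-1, at least 4.52-fold lower in SVEC4-10. Doubling the background takes its log2 ratio to -1.18, against -2.18. A second Prdm11 probe set was below background on both arrays. Prdm8, a repressor known from mouse neurons and retina, had 19.0 in SVEC4-10, just above background, and 69.3 in MS-1, a ratio of -1.87 that came under 2-fold, at -0.98, when the background was doubled. Prdm1, the repressor BLIMP1 of plasma cell and germ cell fate, was below background in SVEC4-10 (15.1) and had 24.99 in MS-1, a ratio of at most -0.50. Prdm6, which is known from vascular smooth muscle, had 35.8 and 22.8 in SVEC4-10 and MS-1 (ratio 0.65). Prdm4 had 282 and 278 in the same order and did not differ beyond the error (ratio 0.022), and Prdm2, the tumour suppressor RIZ, had 86.9 and 69.1, with ratios from -0.062 to 0.86 over 3 probe sets. Prdm10, Prdm15 and Prdm9 had ratios of 0.33, -0.55 and -0.18. The smooth muscle markers Acta2 and Tagln had signals of 6446 and 3801 in SVEC4-10, against 48.6 and 1.38 in MS-1, while Myh11, Cnn1, Myl9 and Lmod1 were below background on both. Any link between these markers and Prdm6 was not tested. Prdm16, which acts in arterial endothelium and brown fat of mice, reached no more than 14.4 and 7.53 in SVEC4-10 and MS-1 over its 4 probe sets, and Prdm14, a gene of pluripotent and germ cells, was lower still.

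Ezh2 and Ezh1, the alternative catalytic subunits of the polycomb repressive complex, were measured on both arrays. Ezh2 had signals of 932 in SVEC4-10 and 876 in MS-1, a log2 ratio of 0.090. Ezh1 had 88.3 in SVEC4-10 and 146 in MS-1, a ratio of -0.72, and its second measured probe set gave -0.50. Ezh2 is known to follow cell proliferation. Of 19 measured proliferation genes, 0 were 2-fold higher in SVEC4-10, 1 in MS-1 (Rrm2, 626 against 1595) and 18 in neither, with a median log2 ratio of -0.085. The corresponding shares over all measured genes were 15.3%, 12.1% and 72.6%. Any link between the proliferation genes and Ezh2 was not tested.

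**Figure D3:**
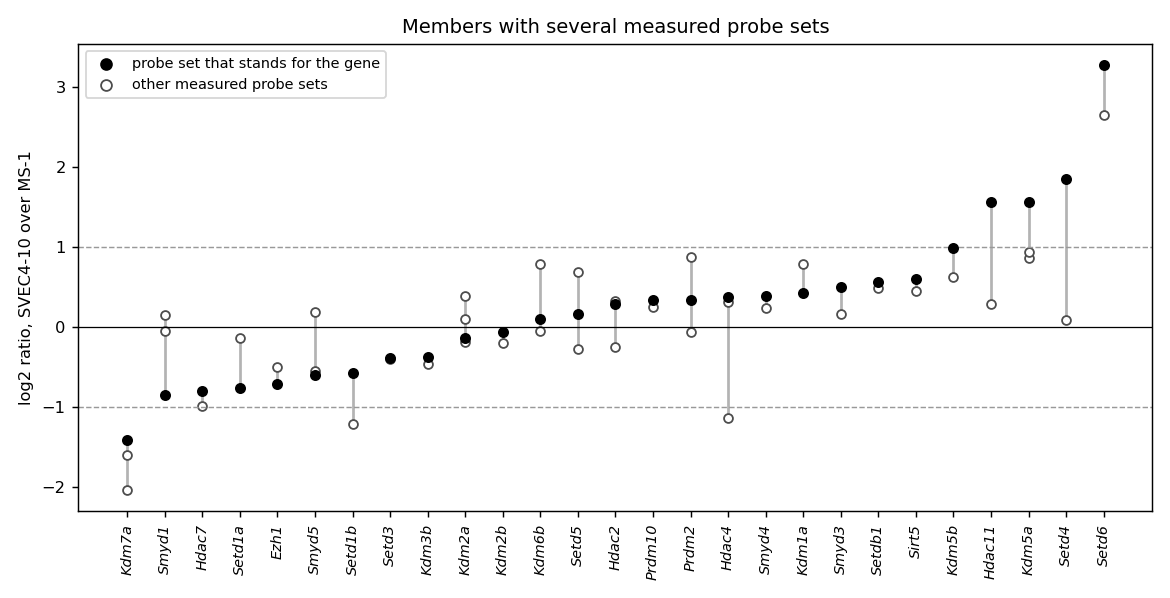
Log2 ratio of SVEC4-10 over MS-1 at every measured probe set of the 27 members with more than 1. Filled points are the probe sets that stand for a gene, open points the others, and dashed lines mark 2-fold. The probe sets of Setd6 and Kdm7a all lie beyond 2-fold, whereas those of Setd4 and Hdac4 are spread widely. Points of probe sets below background on 1 array are bounds.

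Probe sets of the same gene give the nearest thing to a repeat in these data. Of the 27 members with more than 1 measured, 8 gave ratios of opposite sign, and these were Hdac2, Hdac4, Kdm2a, Kdm6b, Prdm2, Setd5, Smyd1 and Smyd5, none of them among the 13 called. Of the 13 members at least 2-fold apart in either direction, as 27.4% of all measured genes were, 8 rest on a single measured probe set (Hdac1, Hdac3, Hdac5, Kdm1b, Prdm8, Prdm11, Sirt1 and Sirt6). The second probe set of Hdac11 gave only a bound. In Kdm7a and Setd6 every measured probe set was beyond 2-fold, and in Kdm5a and Setd4 at least 1 was not. Over 9 alternative ways of scaling, flooring and choosing probe sets, the 4 genes Kdm1b, Kdm7a, Prdm11 and Setd6 stayed at least 2-fold apart in every one. Their ratios still moved, that of Prdm11 from -3.71 to -1.18 and that of Setd6 from 2.27 to 4.81 over the alternatives, and the choice of probe set cannot move Kdm1b and Prdm11, which have 1 measured. All 13 kept their direction in each alternative that gave a value. For the scalings this could hardly come out otherwise, since called ratios are at least 1 in size and the largest scaling shift was 0.51. A change of probe set could have reversed a direction only in Hdac11, Kdm5a, Kdm7a, Setd4 and Setd6, which have more than 1 measured.

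The promoters of these 4 genes are shown because they kept a 2-fold difference under each alternative. RefSeq windows from 250 bases before to 50 bases after a transcription start were matched to 49 of the 62 members by symbol (66 windows, build GRCm38.p6). Each window below is printed 5' to 3' on the strand of its gene, with capitals for the GC box (GGGCGG or its reverse complement CCGCCC), the CCAAT box (CCAAT or ATTGG), the TATA box (TATAAA or TTTATA) and an ETS-type site (CCGGAAG or CTTCCGG).
Setd6 (chr8:95715663-95715962, plus strand): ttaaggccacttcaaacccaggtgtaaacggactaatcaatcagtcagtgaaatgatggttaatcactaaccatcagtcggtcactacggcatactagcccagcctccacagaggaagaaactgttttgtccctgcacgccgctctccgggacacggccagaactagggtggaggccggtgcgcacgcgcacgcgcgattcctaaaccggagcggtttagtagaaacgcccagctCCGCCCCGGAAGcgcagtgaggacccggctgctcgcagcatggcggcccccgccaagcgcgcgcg
Kdm1b (chr13:47043249-47043548, plus strand): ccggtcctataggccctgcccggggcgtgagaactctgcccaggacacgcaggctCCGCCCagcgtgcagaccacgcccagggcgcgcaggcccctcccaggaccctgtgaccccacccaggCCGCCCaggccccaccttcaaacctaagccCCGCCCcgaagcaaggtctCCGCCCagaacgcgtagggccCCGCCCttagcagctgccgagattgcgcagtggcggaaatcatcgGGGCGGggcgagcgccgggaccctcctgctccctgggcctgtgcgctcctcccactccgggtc
Kdm7a (chr6:39206724-39207023, minus strand): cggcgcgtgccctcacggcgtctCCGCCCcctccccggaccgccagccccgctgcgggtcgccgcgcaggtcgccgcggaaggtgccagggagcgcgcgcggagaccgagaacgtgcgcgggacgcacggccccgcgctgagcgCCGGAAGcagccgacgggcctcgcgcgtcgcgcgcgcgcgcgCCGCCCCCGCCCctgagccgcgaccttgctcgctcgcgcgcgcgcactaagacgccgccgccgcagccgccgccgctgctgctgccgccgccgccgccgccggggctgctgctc
Prdm11 (chr2:93046116-93046415, minus strand): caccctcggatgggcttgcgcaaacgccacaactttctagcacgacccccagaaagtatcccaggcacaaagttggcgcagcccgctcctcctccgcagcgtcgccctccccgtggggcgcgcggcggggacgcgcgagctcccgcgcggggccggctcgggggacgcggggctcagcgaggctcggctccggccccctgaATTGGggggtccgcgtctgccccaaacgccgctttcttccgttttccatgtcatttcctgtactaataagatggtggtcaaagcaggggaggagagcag
Setd6 and Kdm1b were higher in SVEC4-10, and Kdm7a and Prdm11 in MS-1.

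All 4 windows are rich in CpG dinucleotides, with 28 in Setd6, 26 in Kdm1b, 65 in Kdm7a and 32 in Prdm11. The median was 23 over the 61 windows of measured members, 20 over the 13037 windows of all measured genes and 7 over all 32851 windows. The GC box occurs 1 time in Setd6, 6 times in Kdm1b, 3 times in Kdm7a and not in Prdm11. It is present in 57.4% of the windows of measured members, 60.8% of those of all measured genes and 35.7% of all windows. The ETS-type site occurs 1 time each in Setd6, where it shares 1 base with the GC box, and in Kdm7a, against 16.4% of the windows of measured members, 16.4% of those of all measured genes and 8.86% of all windows. The CCAAT box occurs in Prdm11 only, against 47.5%, 37.5% and 37.4% of the same sets, and the TATA box in none of the 4, against 4.92%, 7.62% and 13.6%. So few windows cannot show whether the motifs separate genes higher in SVEC4-10 from those higher in MS-1, and a match describes these letters alone.

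Partners of these enzymes are given beside the shares over all measured genes. These were 15.3% at least 2-fold higher in SVEC4-10, 12.1% in MS-1 and 72.6% in neither. Among 9 measured partners of the EZH proteins, 1 was at least 2-fold higher in SVEC4-10, 1 in MS-1 and 7 in neither (median log2 ratio 0.070). Phf19, a polycomb-like protein that reads an elongation mark, had 21.8 in SVEC4-10 and 183 in MS-1, a ratio of -3.07. Jarid2, a cofactor that guides the complex, had 70.5 and 31.2 in SVEC4-10 and MS-1, with probe sets from 0.41 to 1.54. Rbbp7, a histone-binding subunit, had 4277 and 4075 in the same order, a ratio of 0.070. Phf19 was thus the partner furthest apart, and it was close to background in SVEC4-10.

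Of 19 measured scaffolds and subunits of deacetylase and LSD1 corepressor complexes, 2 were at least 2-fold higher in SVEC4-10, 1 in MS-1 and 16 in neither (median log2 ratio -0.032). Over all measured genes the shares were 15.3%, 12.1% and 72.6%. The median of the deacetylases and sirtuins themselves was 0.61, and the difference between these medians was not tested. Rcor2, a CoREST protein that binds LSD1, had 102 in SVEC4-10 and was below background in MS-1, at least 6.24-fold. Chd3, a NuRD remodelling ATPase, had 313 and 73.0 in SVEC4-10 and MS-1, a ratio of 2.10. The gene higher in MS-1 was Mta1, a NuRD subunit, with 198 in SVEC4-10 and 475 in MS-1. It was named after its values were seen. Some listed genes that lacked a probe set of their own in the annotation used were not analysed here.

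Histone lysine methyltransferases outside the named families had 0 of 16 measured genes at least 2-fold higher in SVEC4-10 and 1 in MS-1. The shares over all measured genes were 15.3% and 12.1%, and the median log2 ratio of the 16 was -0.18. The gene higher in MS-1 was Nsd2, with 209 in SVEC4-10 and 433 in MS-1 at the probe set used. Its probe sets had ratios from -1.05 to 0.47. Ehmt2, the enzyme G9a, had 1451 and 1587 in SVEC4-10 and MS-1. As did 72.6% of all measured genes, the 8 core subunits of COMPASS complexes all lay within 2-fold (median -0.14). Rbbp5 was furthest apart at -0.90. Against 15.3% and 12.1% of all measured genes, 2 of 12 other JmjC proteins were at least 2-fold higher in SVEC4-10 and 3 in MS-1 (median -0.18). Among them Hr, a corepressor of hair follicles with demethylase activity, was at least 3.28-fold higher in SVEC4-10, where its signal was 53.4. Hspbap1 had 57.9 and 18.8 in SVEC4-10 and MS-1, with a second probe set at a ratio of 0.15. The 3 genes higher in MS-1, named after their values were seen, were Jmjd8 (at most -1.61, below background in SVEC4-10), Riox1 (-1.27) and Jmjd4 (-1.05).

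**Figure D4:**
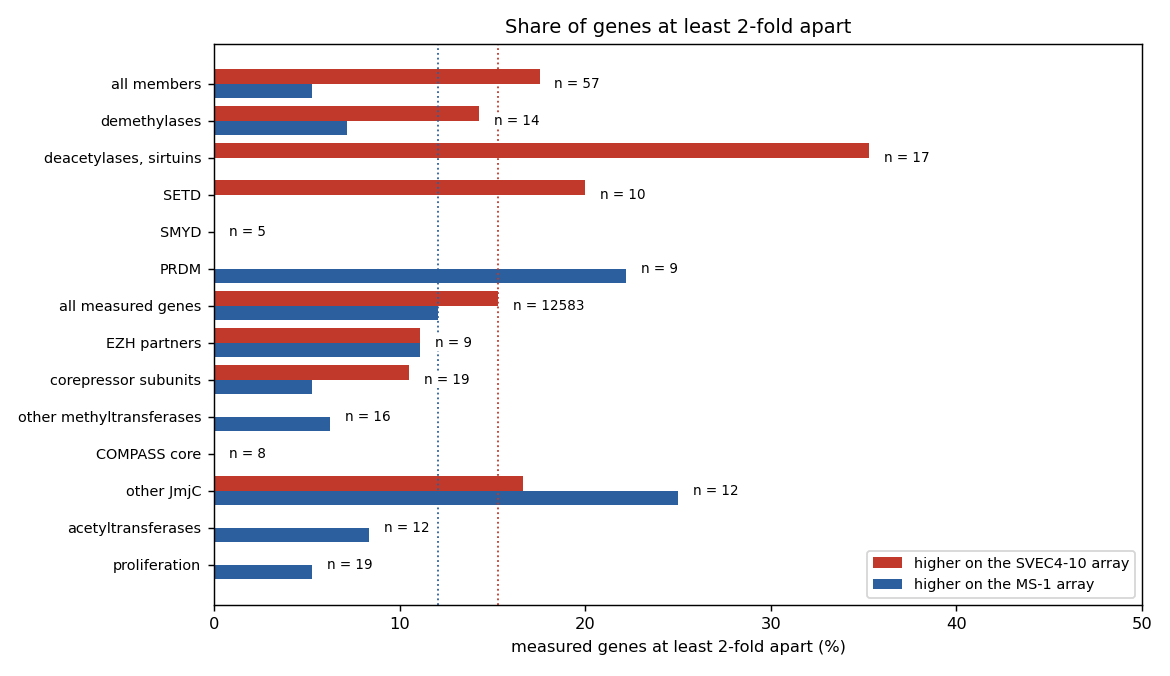
Share of measured genes at least 2-fold higher in SVEC4-10 (red) and in MS-1 (blue) for the members, their families, all measured genes and other chromatin and proliferation lists, with the number of measured genes beside each pair. Dotted lines mark the shares over all measured genes, 15.3% and 12.1%. The deacetylases and sirtuins reach 35.3% and 0%, and the members as a whole 17.5% and 5.26%.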

How the data were processed

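The authors deposited 1 intensity per probe set and array, on a linear scale, for 45101 probe sets. Per the labels' protocols, 6 µg of total RNA went into each biotin-labelled cRNA. The summary method is not given in the sources used here. Each array had the same 2%-trimmed mean, 150.001, which shows a common scaling, and the deposited intensities were used unchanged. Gene names came from the platform annotation, and symbols were renewed through the identifiers of RefSeq genes on GRCm38.p6 (34741 of 34945 matched). The 932 probe sets of several genes were left out, and 9160 were unnamed here.

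The measured probe set of highest average log2 signal stood for a gene, with the _x_at class, which can cross-hybridise, used last. A member was called by a fold of 2 on floored values. The error is the difference between the log2 ratios of the 2 brightest probe sets of a gene, both above background on both arrays, as a root mean square divided by the square root of 2. Every member could be named. Signals were given for those at least 2-fold apart and for the 2 brightest of each family. From other lists the 2 largest ratios and the brightest gene could be named.

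The members and lists were chosen with earlier results of these data known. The Gapdh 3'/5' signal ratio was 0.812 in SVEC4-10 and 0.809 in MS-1. The steps were tested on simulated data in Python 3.11.15 with pandas 2.3.3 and numpy 2.4.6. The number of arrays limits the precision. The alternatives were 3 other scalings, 3 background settings, 3 choices of probe set and a 4-fold threshold.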

Additional observations from a re-analysis of the deposited data

Results flagged for a closer look

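A signal appeared in a probe set that no comparison above uses, because it is annotated to Kdm6b together with 1700064E03Rik. It had 162 in SVEC4-10 and 72.4 in MS-1, above the background of 17.6 and 16.3. Its log2 ratio of 1.16 exceeds the 0.10 of the probe set that stands for Kdm6b, and which of these genes it reports cannot be told apart here.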

How the results depend on the processing

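Scaling to the poly-A controls lowered the members at least 2-fold higher in SVEC4-10 to 5 (8.77%, against 8.63% of all measured genes). It raised those higher in MS-1 to 12 (21.1%, against 25.4%) and moved the members' median log2 ratio to -0.35. By construction it shifts every ratio by the same amount. A 4-fold threshold left 1 and 1. Under the other 8 alternatives the count higher in SVEC4-10 was 7 to 10, that higher in MS-1 2 to 3 and the median 0.096 to 0.18. Of the 13 members at least 2-fold apart, 4 stayed so under every alternative that keeps that threshold. None reversed under any, but a shift of 0.51 cannot reverse a log2 ratio of at least 1 in size. A change of probe set could do so only where a gene has more than 1 measured. The poly-A scaling took Hdac1, Hdac3, Hdac5, Sirt1 and Sirt6 under 2-fold. Doubling the background took Prdm8, Sirt6, Hdac11 and Setd4 under 2-fold (Prdm8 to -0.98) and moved Setd6 to 2.27 and Prdm11 to -1.18, and the probe set with the smallest ratio did so for Kdm5a (0.86) and Hdac11 (0.28), where it is a lower bound, and Setd4 (0.084). Quantile normalization took Hdac3 under 2-fold, and averaging over probe sets did so for Hdac11 and Setd4. Of 505 member values under alternatives, 84 moved by more than the error of 0.48, 57 of them under the poly-A scaling. No paired analysis was possible because each line has 1 array. Dim genes such as Prdm1, Prdm9 and Smyd1, whose signals lay near background, cannot be compared firmly. The members without a signal above background have no ratio.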

Other observations

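Of 12 measured histone acetyltransferases, which add acetyl groups, 0 were at least 2-fold higher in SVEC4-10, 1 in MS-1 and 11 in neither. Over all measured genes these shares were 15.3%, 12.1% and 72.6%. The median log2 ratio of the 12 was -0.20. Kat2b, the coactivator PCAF, had 1027 in SVEC4-10 and 589 in MS-1 (ratio 0.80). Ncoa3, a nuclear receptor coactivator, had 81.0 and 216 in SVEC4-10 and MS-1, a ratio of -1.41 at the probe set used and 0.38 at another. Hat1, which acetylates newly made histones, had 1505 and 1168 in the same order. The difference between the medians of acetyltransferases and deacetylases was not tested.

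The MEF2 transcription factors, which class IIa deacetylases bind, were measured for 3 of 4 genes. Mef2c, which acts in endothelium and muscle, had 37.1 in SVEC4-10 and 130.3 in MS-1, with log2 ratios from -3.25 to -1.81 over its probe sets, bounds included. Mef2a had 768 and 746 in SVEC4-10 and MS-1, a ratio of 0.042. Mef2d had a ratio of -0.34, with a lowest of -2.24 among its probe sets.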
